A study of Mus musculus with 24 samples.

Results

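The genes of the interleukins and of their receptors were followed through the first 6 weeks of life in whole mouse lung. They were chosen by name alone: every gene whose RefSeq symbol is Il followed by a digit, which took in 81 of the 19722 genes that array probes could be tied to. Lungs came from healthy C57BL/6 mice, with no treatment named, at postnatal days 1, 4, 7 and 14 (5 samples each) and day 42 (4 samples). All 5 ages share strain, tissue and array type, and the labels call the samples biological replicates without stating whether each is 1 animal, so p-values measure the spread between these samples. The series title speaks of fetal lungs, whereas each sample is labelled postnatal. Total RNA was labelled with 1 dye and hybridised to Agilent whole-genome arrays.

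Interleukins are secreted proteins by which immune, epithelial and stromal cells signal to each other. Most of them bind receptors built from a private chain and a shared chain, such as the common gamma chain, the beta common chain or gp130, and signal through Janus kinases and STAT factors. The IL-1 and IL-17 families use separate receptor types that lead to NF-kappaB. In the lung, alarmins of the IL-1 family such as IL-33 are stored in epithelial and stromal cells, and lymphocytes that take up residence after birth carry receptors for IL-7, IL-2 and IL-33.

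Levels are given as log2 of the spot signal minus the 75th percentile of the same array, so that 0 is the signal of a probe at that percentile and a step of 1 is a 2-fold difference. A level belongs to its probe, and levels of different genes are not set against each other. Each difference between ages is a log2 difference ± its standard error from the fit over all 24 arrays, with 4 samples at day 42 and 5 at each other age, and an adjusted p under 0.05 counts as passing. The 75th percentile itself lay between 476.1 and 1652.7 intensity units over the 24 arrays, and no spot was saturated. Probes of 5 lung epithelium markers, among them Sftpc and Scgb1a1, were well above background on every array. Replicates 4 and 5 of day 1, 1 and 3 of day 4 and 4 of day 42 stood apart from the other 19 arrays on the first principal component of all tested genes (49.8% of the variance). They also had the lowest 75th percentiles (979.3 or less, against 995.5 or more) and the lowest shares of spots well above background (56% or less, against 57% or more). None of these 5 arrays is of day 14 or day 7, and most differences that involve the other ages are followed by their value without these 5. One day 14 sample is numbered replicate 4 in its title and 3 in its source label, and the title was followed. Replicate 5 of day 14 lay apart from the other day 14 arrays in many interleukin genes. Over all tested genes it did so too, at -8.6 on the second principal component (27.9% of the variance). The other day 14 arrays stood there at 40.5 to 48.5.

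Receptor chains were detected on all arrays more often than ligands. Of 40 receptor chains on the array, 24 were well above background on all 24 arrays, against 11 of 38 ligands and antagonists. At the low end, 2 receptor chains and 7 ligands were well above background on no array. Those never well above background were the ligands Il1f6, Il1f8, Il2, Il20, Il21, Il23a and Il31 and the brain-type receptor homologues Il1rapl1 and Il1rapl2. A further 11 members reached that mark on 1 to 3 arrays, namely Il17a, Il17c, Il17f, Il19, Il1bos, Il1f10, Il25 and Il9 on 1 array each, Il1f5 and Il20ra on 2, and Il23r on 3. The T-cell cytokines IL-2, IL-21, IL-9, IL-17A and IL-17F are thus among those at or below the array's limit of detection in these lungs, which does not show that they were absent.

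**Figure D1:**
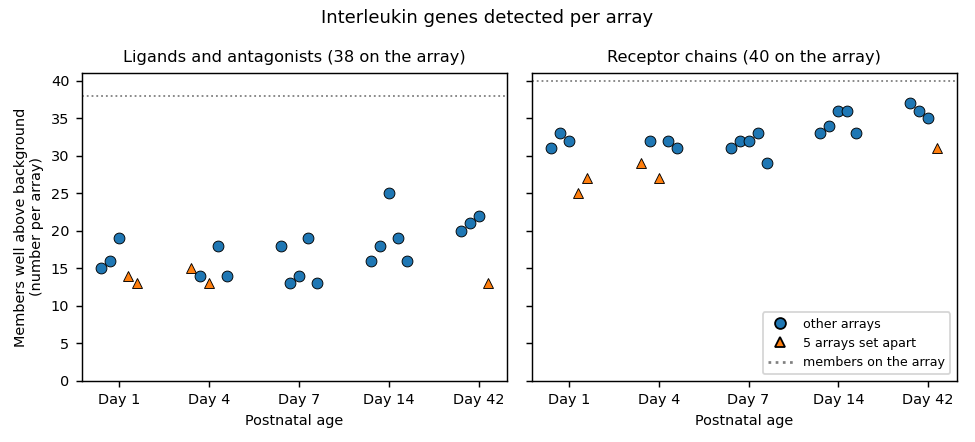
Number of ligands and antagonists (left, 38 on the array) and of receptor chains (right, 40 on the array) well above background on each array, by postnatal age; triangles are the 5 arrays set apart. Ligands numbered 13 to 25 per array and receptor chains 25 to 37, and in receptor chains the triangles are the lowest arrays of their age.

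Receptor chains well above background on every array of an age numbered 25, 27, 28, 32 and 31 of 40 at days 1, 4, 7, 14 and 42, and ligands 12, 13, 12, 14 and 13 of 38. By this count days 14 and 42 had the most receptor chains, while the ligands kept to a narrow range. The mark is easier to reach at day 42, with 4 arrays, than at the other ages, with 5. The median number per array was higher at days 14 and 42 in both classes. It was 15, 14, 14, 18 and 20 for ligands and 31, 31, 32, 34 and 35 for receptor chains. For all 81 members the counts were 39, 42, 42, 48 and 46, or 48.1%, 51.9%, 51.9%, 59.3% and 56.8%. Over all genes the shares were 69.1%, 70.6%, 73.2%, 75.1% and 71.6%, so the members were less often detected at every age. Single arrays ranged from 41 members on the lowest day 1 array to 64 on replicate 3 of day 14, which also had the highest share of detected spots. The part of signal strength in these counts was not tested.

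Genes entered the test when at least 4 arrays showed them well above background, as 61 members and 15895 genes in all did. A gene seen only at the age where it is high can pass this filter only through that age, so counts over the 61 describe the detectable members. In limma with Benjamini-Hochberg adjustment over all genes tested, 37 of the 61 (60.7%) differed between at least 2 ages, against 31.8% of all genes tested. No member passed between day 4 and day 1 (0.0629% of all genes did), where 4 had an unadjusted p under 0.05, and none passed between day 7 and day 4 (0.00629% of all genes), where 6 did. Without the 5 arrays set apart none passed in these 2 comparisons either, against 0.0818% and 0.0503% of all genes, by limma.

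Among neighbouring ages, the most members passed between day 7 and day 14. There, 16 members were higher at day 14 (6.04% of all genes were) and 1 was lower (5.54%). In either direction 17 passed, or 27.9% of the members tested, against 11.6% of all genes. The median difference of the 61 members was 0.67, and that of all genes tested was 0.02. The 5 arrays set apart add nothing to these 2 ages but do add to the spread the fit shares, and without them 37 members were higher and 2 lower (20.5% and 18.1% of all genes). Without replicate 3 of day 14 the count of 17 was 11. In 18 members the 5 day 14 arrays lay entirely above the 5 day 7 arrays, as they did in 8.56% of all genes, and in 1 member (Il10) entirely below, as in 8.11% of all genes.

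Fewer members passed between day 14 and day 42. Against day 14, 5 members were higher (2.18% of all genes) and 0 lower in limma (1.51%). In either direction these 5 are 8.2% of the members tested, against 3.69% of all genes. Over all members 13 had an unadjusted p under 0.05, with median differences of 0.39 for members and 0.07 for all genes. Without the 5 arrays set apart 15 were higher and 3 lower (6.73% and 6.82% of all genes). The count of 5 was 2 without replicates 1, 2 or 4 of day 14 or replicate 2 of day 42, 3 without replicates 3 or 5 of day 14 or replicate 4 of day 42, and was 9 without replicate 4 of day 1. In 14 members every day 42 array lay above every day 14 array (7.64% of all genes), and in 1 below (3.88%). Only Il18bp and Il1b passed in each of the 24 fits that left out 1 array.

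Between the first and the last age nearly all members that passed were higher at day 42. At day 42, 32 members were higher than at day 1 (13% of all genes) and 1 was lower (13.7%). In either direction 33 passed, or 54.1% of the members tested, against 26.7% of all genes. In 20 members the day 42 arrays lay entirely above the day 1 arrays (8.64% of all genes), and in none entirely below (7.86%). The median difference was 0.98 over members and -0.06 over all genes. The same 33 members passed without the 5 arrays set apart, among 39 higher and 2 lower (22.6% and 24.1% of all genes). These are 41 members, or 67.2% of those tested, against 46.6% of all genes. Between any ages 45 then differed, or 73.8%, against 53.9% of all genes. Without these 5 arrays, 7 common gamma chain receptors were higher at day 42 than at day 1 (6 with all 24). In the IL-6 and gp130 family 6 were (4), and among IL-1 family receptors 6 (5). In the IL-10 family 3 were higher (2) and 1 lower (0). Type 2 and beta common members had 2 higher (1), and the members outside these families 3 (2). Unless stated, an adjusted p below belongs to all 24 arrays. Restricting the fit to genes well above background on all 24 arrays left 37 members, of which 19 were higher (12.1% of such genes) and 1 lower (14.2%). For 12 of the 33, some arrays of day 42 or day 1 were not well above background (Il11, Il12a, Il17rb, Il18rap, Il1a, Il1rap, Il22ra2, Il2ra, Il31ra, Il4, Il7 and Il7r), which makes the size of their differences less certain. Of 36 receptor chains tested 21 were higher, and of 23 ligands or antagonists 9 were. The other 2 of the 32 were Il18bp and Il4i1, which were classed apart in this count. The comparisons of day 42 with day 14, of day 42 with day 1 and of day 14 with day 7 share arrays, so their calls are not independent of each other.

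**Figure D2:**
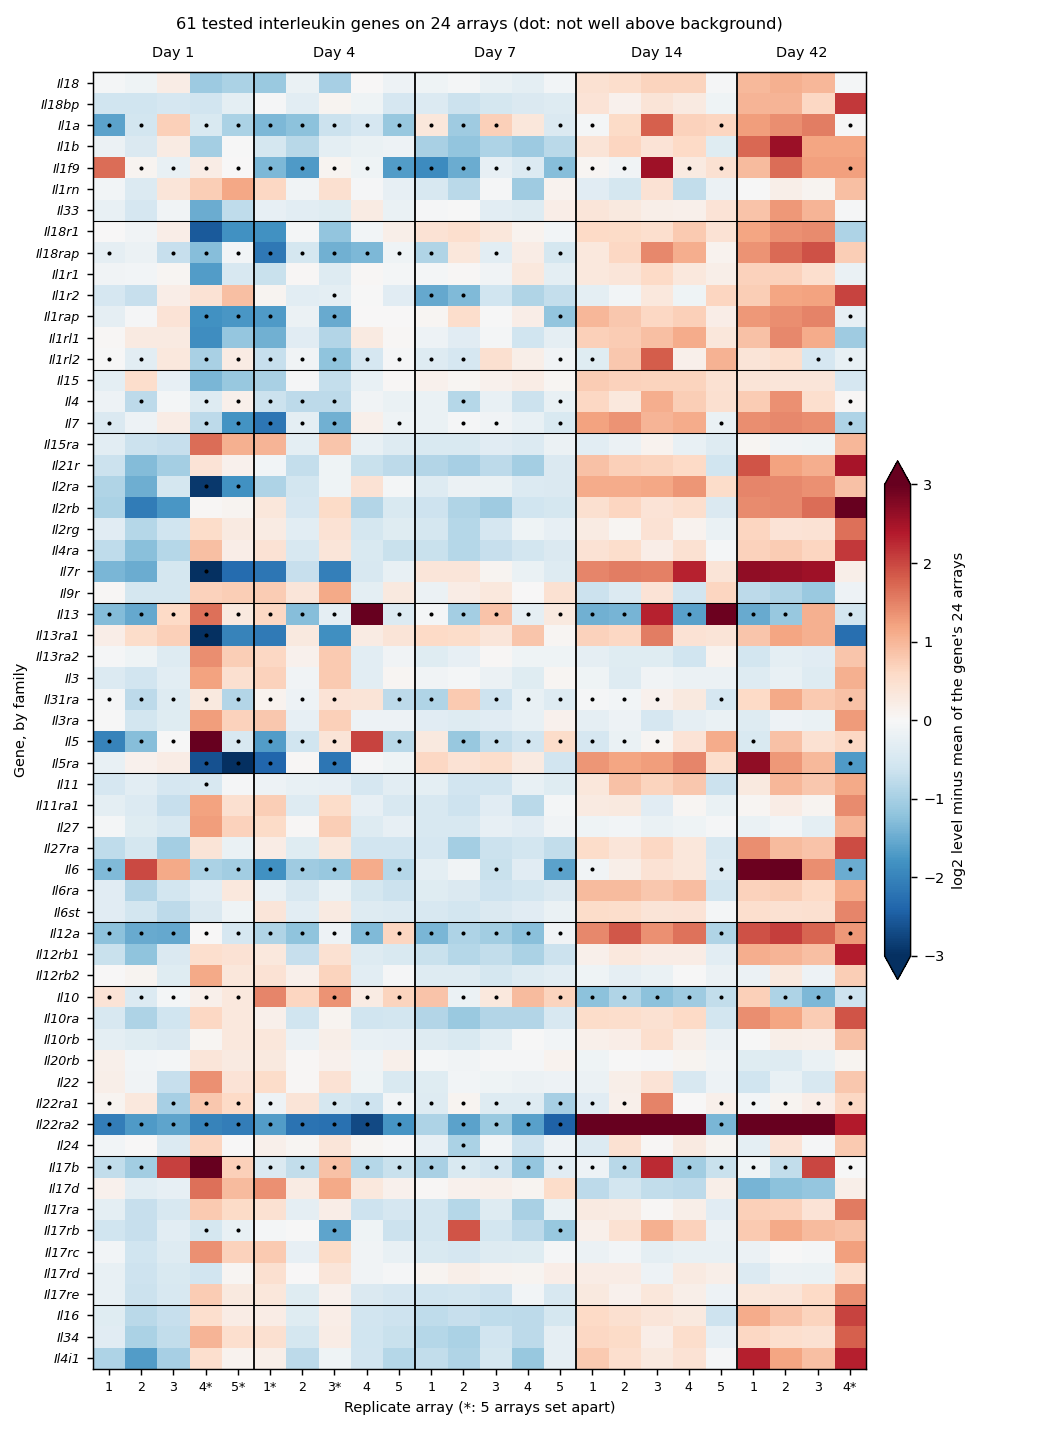
Level of each of the 61 tested members (rows, by family) on each of the 24 arrays (columns, by age), as log2 level minus the mean of that gene's 24 arrays, with dots where the probe was not well above background. Red gathers at days 14 and 42 in most families, and the starred columns, the 5 arrays set apart, differ from their neighbours of the same age.

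**Figure D3:**
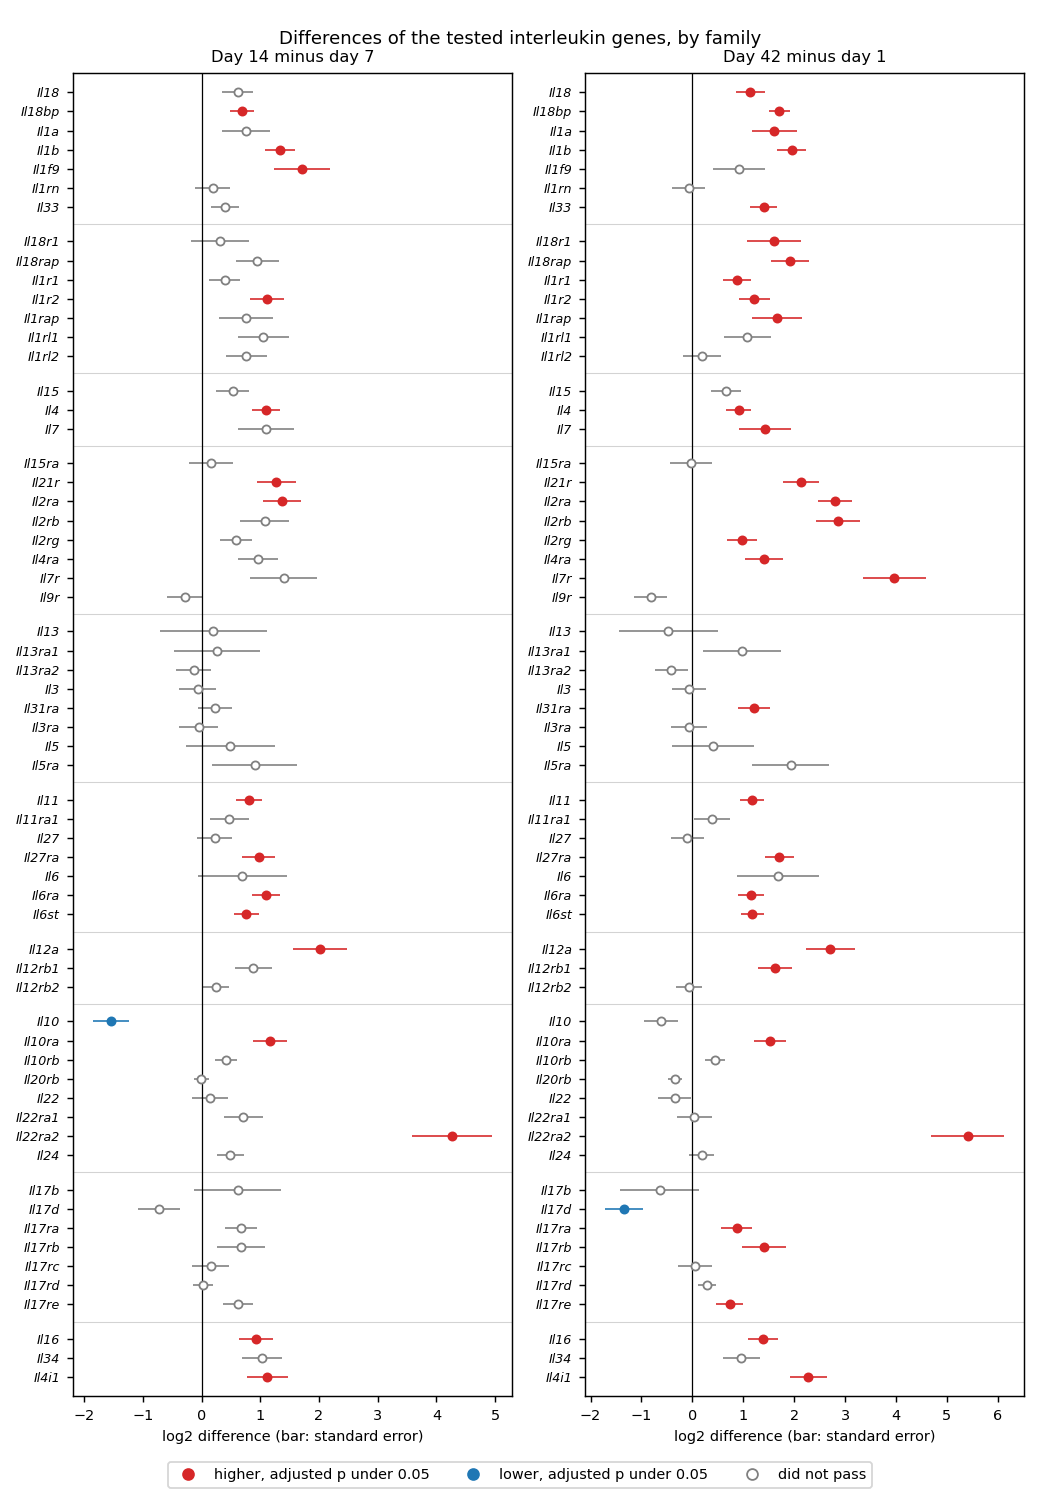
Log2 difference with its standard error for each tested member, grouped by family, for day 14 minus day 7 (left) and day 42 minus day 1 (right); filled points passed an adjusted p of 0.05. On the left 16 points passed above 0 and 1 below (Il10), on the right 32 above and 1 below (Il17d), and Il22ra2 lies farthest out on both sides.

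Markers of immune cells changed over the same ages, and in whole tissue more cells of a type and more RNA per cell cannot be told apart. Between day 1 and day 42, 6 of 7 T-cell markers were higher, with a median difference of 2.11, as were 5 of 5 B-cell markers (median 2.04), 4 of 5 natural killer cell markers (median 3.15) and 4 of 5 alveolar macrophage markers on the array (median 1.25), where 13% of all genes were. Without the 5 arrays set apart the counts were 7, 5, 5 and 5, where 22.6% of all genes were higher. The mean level of the T-cell list was 0.63 to 1.73 over the day 42 arrays and -1.59 to -0.25 over the day 1 arrays. For the natural killer list these ranges were -1.04 to 0.2 at day 42 and -4.04 to -2.31 at day 1, for the B-cell list -0.16 to 0.91 at day 42 and -2.29 to -1.46 at day 1, and for the macrophage list 3.9 to 4.14 at day 42 and 1.27 to 2.27 at day 1. None of these ranges overlapped, and 1 B-cell and 1 natural killer marker were well above background on no day 1 array.

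**Figure D4:**
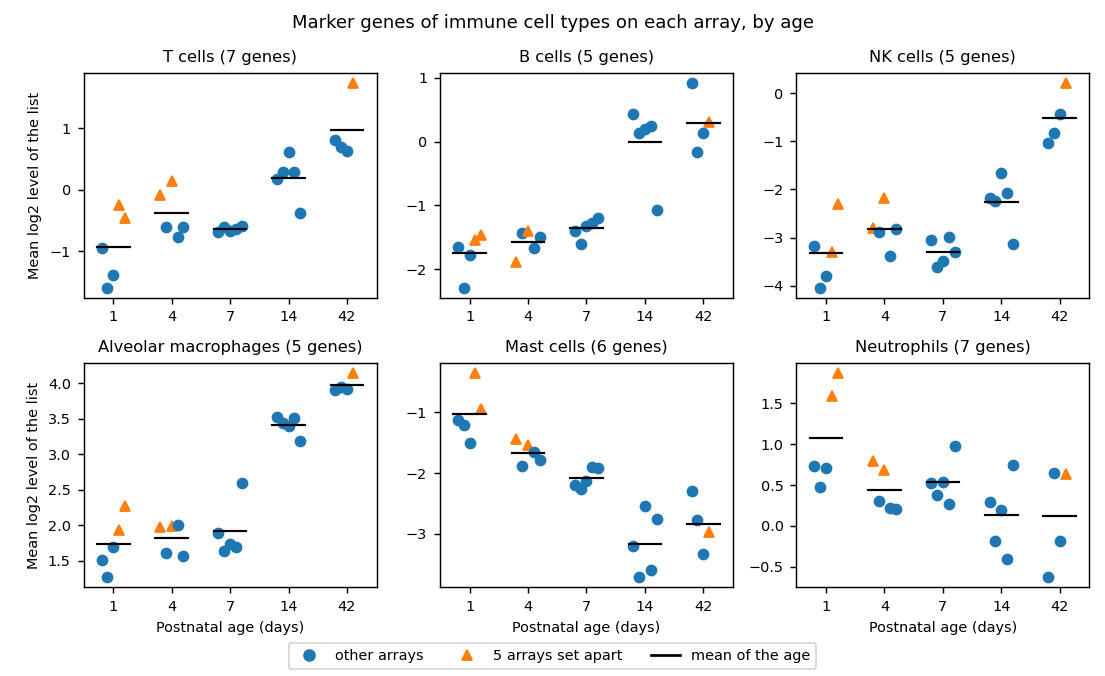
Mean log2 level of the marker genes of 6 immune cell types on each array, by postnatal age in days; bars are the means of an age and triangles the 5 arrays set apart. The T-cell, B-cell, natural killer and alveolar macrophage lists are higher at day 42 than at day 1 without overlap, and the mast cell list is lower.

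Mast cell markers went the other way. Of 5 mast cell markers tested, 4 were lower at day 42 than at day 1 and 1, Kit, was higher. Of 7 neutrophil markers 2 were lower (13.7% of all genes were). The counts were the same without the 5 arrays set apart, where 24.1% of all genes were lower. The eosinophil-defining gene Epx and the mast cell receptor gene Ms4a2 were well above background on no array. Of the other eosinophil markers, Prg2 was well above background on 9 arrays and Ear6 on 24. Neither passed between day 42 and day 1. Ear6 was higher at day 14 than at day 7 by 0.48 ± 0.15 (adjusted p = 0.0374 in limma). Fat cell markers passed upward in 3 of 3 cases, with the list at -1.92 to 3.33 over the day 42 arrays and -6.37 to -4.72 over the day 1 arrays. The mean level of 5 heart muscle markers was 1.2 to 3.32 over the day 42 arrays and -0.17 to 6.2 over the day 1 arrays. On replicate 3 of day 14 it was 3.89, against 0.59 to 2.41 on the other day 14 arrays. The mean of 5 thymus precursor markers was -1.39 on that replicate, against -4.67 to -4.16 on the other day 14 arrays. The part of cell numbers, of neighbouring tissue and of array quality in the interleukin differences was not tested.

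The receptors of the common gamma chain cytokines stood higher at day 42 in most cases. Of 8 tested, 6 were higher than at day 1, against 13% of all genes, none passed in the other direction, and the median difference was 1.77. Il7r, the private chain of the IL-7 receptor on developing and resting lymphocytes, read 0.39, 0.35, 0.26 and -2.09 at day 42 and -3.65, -3.76, -2.79, -6.4 and -4.58 at day 1. Every day 42 array lay above every day 1 array, although replicate 4 of day 42 sat far below its 3 companions. The difference was 3.97 ± 0.61 (adjusted p = 2.8e-05, 3.73 without the 5 arrays), or 15.6-fold, and the means climbed over the ages as -4.24, -3.4, -2.23, -0.83 and -0.27. 

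The alpha and beta chains of the IL-2 receptor were also higher. Il2ra, the inducible alpha chain that raises affinity for IL-2, read -2.01, -2.04, -2.12 and -2.61 at day 42 and -4.38, -4.95, -4, -6.37 and -5.29 at day 1. Its difference of 2.8 ± 0.34 (adjusted p = 1.27e-06, 2.39 without the 5 arrays) compares with 1.37 ± 0.32 (adjusted p = 0.00519) for day 14 minus day 7, where the arrays did not overlap either. Il2rb, the beta chain shared by the IL-2 and IL-15 receptors, read 0.59, 0.62, 0.85 and 2.34 at day 42 and -1.77, -2.92, -2.58, -0.78 and -0.74 at day 1, again without overlap. It differed by 2.86 ± 0.43 (adjusted p = 2.27e-05, 3.11 without the 5 arrays). Against day 14 it was higher by 1.6 ± 0.43 (adjusted p = 0.0388, 1.19 without the 5 arrays), a call that ended with slide as a block, at an adjusted p of 0.0533 in limma.

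Other receptors of this family were higher by less. Il21r, the IL-21 receptor, read -0.36, -1.03, -1.15 and 0.23 at day 42 and -2.88, -3.54, -3.26, -1.82 and -2.1 at day 1, a difference of 2.14 ± 0.35 (adjusted p = 6.27e-05, 2.38 without the 5 arrays), and it had passed between day 14 and day 7 as well, at 1.27 ± 0.33 (adjusted p = 0.0123). Il2rg, the common gamma chain itself, read 1.17, 0.94, 0.96 and 2.17 at day 42 and 0.18, -0.34, -0.08, 1.07 and 0.8 at day 1. These overlapped, the difference was 0.98 ± 0.29 (adjusted p = 0.0139, 1.1 without the 5 arrays), and it no longer passed without replicate 4 of day 42, at 0.7. Il4ra, the chain shared by the IL-4 and IL-13 receptors, read 1.08, 1.16, 1.05 and 2.52 at day 42 and -0.36, -0.85, -0.47, 1.3 and 0.6 at day 1 and was higher by 1.41 ± 0.37 (adjusted p = 0.00544, 1.65 without the 5 arrays), with replicate 4 of day 1 above 3 of the 4 day 42 arrays. The probes of Il15ra disagreed: its brightest gave a day 42 minus day 1 difference of -0.02 ± 0.41 (adjusted p = 0.978, 0.49 without the 5 arrays) and its second probe, which was not tested, one of 1.56. Il9r had a difference of -0.82 ± 0.33 (adjusted p = 0.0724, -0.59 without the 5 arrays).

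Promoter windows of Il7r and Il2ra, given because both genes were higher on every day 42 array than on any day 1 array, are shown from RefSeq (build GRCm38.p6), running from 250 bases before the gene's start to 50 after it. Capitals mark the matches a search of both strands found among 5 motifs. In Il7r, on the minus strand at chr15:9529827-9530126, the match is a STAT motif of the form TTCNNNGAA. In Il2ra, on the plus strand at chr2:11642542-11642841, it is a stretch in which matches to the NF-kappaB motif overlap.
Il7r: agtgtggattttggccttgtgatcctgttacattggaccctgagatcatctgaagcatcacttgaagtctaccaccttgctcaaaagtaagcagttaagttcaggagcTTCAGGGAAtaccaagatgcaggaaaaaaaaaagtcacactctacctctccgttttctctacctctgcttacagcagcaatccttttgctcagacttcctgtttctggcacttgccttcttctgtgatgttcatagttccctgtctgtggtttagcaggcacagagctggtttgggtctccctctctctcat
Il2ra: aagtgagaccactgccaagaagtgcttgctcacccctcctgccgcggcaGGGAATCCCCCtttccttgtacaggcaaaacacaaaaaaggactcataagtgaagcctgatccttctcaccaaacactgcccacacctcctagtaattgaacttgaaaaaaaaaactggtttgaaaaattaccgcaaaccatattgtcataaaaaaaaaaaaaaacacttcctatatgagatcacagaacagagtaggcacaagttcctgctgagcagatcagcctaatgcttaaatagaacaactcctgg
A match describes letters only, and nothing in these data bears on binding there.

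Among the cytokines of the common gamma chain, 3 of 6 on the array were tested and 2 of these were higher at day 42 than at day 1 (13% of all genes). Il4, the type 2 cytokine that drives IgE class switching, was near the limit of detection: its probe was well above background on 2, 2, 3, 5 and 3 arrays at days 1, 4, 7, 14 and 42. It read -4.54, -4.85, -4.07, -4.42 and -4.68 at day 14 and -5.37, -6.03, -5.4, -5.81 and -5.39 at day 7, without overlap, and was higher by 1.09 ± 0.24 (adjusted p = 0.00298), or 2.13-fold. At day 42 it read -4.41, -3.8, -4.67 and -5.13, against -5.31, -5.95, -5.23, -5.55 and -5.02 at day 1, a difference of 0.91 ± 0.25 (adjusted p = 0.00807, 1.21 without the 5 arrays). That call rested on replicate 2 of day 42, without which the difference was 0.68 and did not pass. Il7, the lymphocyte survival cytokine made by stroma, read -3.91, -3.87, -3.93 and -6.24 at day 42 and -5.76, -5.48, -5.09, -6.1 and -7.11 at day 1. These overlapped through replicate 4 of day 42, and the difference of 1.42 ± 0.51 (adjusted p = 0.0403, 1.54 without the 5 arrays) stopped passing in 6 of the 24 fits that left out 1 array, over which it ranged from 1.12 to 2. Il15, which sustains natural killer and memory T cells, had a difference of 0.66 ± 0.3 (adjusted p = 0.108, 0.38 without the 5 arrays).

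Among 7 tested ligands and antagonists of the IL-1 family, 5 were higher at day 42 than at day 1 (13% of all genes were), namely Il1a, Il1b, Il18, Il33 and the IL-18 inhibitor gene Il18bp, with a median difference of 1.4. Il1b, the inflammasome-processed cytokine of monocytes and macrophages, read -1.12, -1.31, -1.06, -1.22 and -0.94 at day 7, 0.25, 0.51, 0.27, 0.45 and -0.49 at day 14 and 1.58, 2.44, 1.04 and 1.05 at day 42. The arrays of these 3 ages did not overlap. The 2 steps were each 1.33, with adjusted p-values of 0.00129 for day 14 minus day 7 and 0.00724 for day 42 minus day 14, which was 1.49 without the 5 arrays. Against day 1, where it read -0.31, -0.57, 0.1, -1.16 and -0.16, it was higher at day 42 by 1.95 ± 0.28 (adjusted p = 1.13e-05, 1.95 without the 5 arrays), or 3.85-fold. Il1a, its neighbour on the chromosome and a cytokine active without processing, stood well above background on 3 of 4 day 42 arrays and 1 of 5 at day 1. This gene entered the test only through days 14 and 42. It read -4.8, -4.68, -4.52 and -6.08 at day 42 and -7.67, -6.62, -5.34, -6.53 and -7.01 at day 1, overlapping, a difference of 1.61 ± 0.44 (adjusted p = 0.0074, 1.87 without the 5 arrays). With normexp background correction (offset 50) that difference was -0.02, so none of it remained under this background method.

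The promoter window of Il1b, given as that of 1 of the 3 members that passed in all 3 later comparisons, holds a TATA box (TATAAA, in capitals) and no match to the other motifs searched. It lies on the minus strand at chr2:129371090-129371389, RefSeq, GRCm38.p6.
Il1b: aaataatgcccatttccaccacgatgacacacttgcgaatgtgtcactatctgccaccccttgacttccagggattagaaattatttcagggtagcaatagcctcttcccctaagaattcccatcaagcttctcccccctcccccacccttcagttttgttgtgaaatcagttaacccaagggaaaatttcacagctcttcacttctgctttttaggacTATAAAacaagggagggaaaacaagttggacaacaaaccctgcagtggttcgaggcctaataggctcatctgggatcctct

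Il33, the nuclear alarmin that activates innate type 2 lymphocytes, was well above background on all 24 arrays. It read 3.26, 3.71, 3.43 and 2.38 at day 42 and 2.19, 1.91, 2.3, 0.91 and 1.64 at day 1, without overlap, although the lowest day 42 array (2.38) and the highest day 1 array (2.3) nearly met. The difference was 1.4 ± 0.26 (adjusted p = 0.000205, 1.33 without the 5 arrays), or 2.65-fold. Its means were 1.79, 2.23, 2.29, 2.68 and 3.19 over the 5 ages, and no single step passed with all 24 arrays. Without the 5 arrays set apart, both day 14 minus day 7, at 0.39 (adjusted p = 0.0283), and day 42 minus day 14, at 0.78 (adjusted p = 0.00331), did.

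IL-18 and its soluble inhibitor were both higher at day 42. Il18, an inflammasome cytokine that induces interferon gamma, read 1.19, 1.29, 1.23 and 0.17 at day 42 and 0.16, 0.11, 0.45, -0.87 and -0.72 at day 1, a difference of 1.14 ± 0.29 (adjusted p = 0.00463, 0.99 without the 5 arrays) with an overlap through replicate 4 of day 42. Il18bp, which encodes the protein that binds and neutralises IL-18, read -0.83, -0.83, -1.22 and 0.27 at day 42 and -2.45, -2.44, -2.36, -2.43 and -2.13 at day 1 and differed by 1.71 ± 0.21 (adjusted p = 2.32e-06, 1.45 without the 5 arrays) without overlap. Like Il1b and Il1r2 it passed in all 3 later comparisons, with 0.69 ± 0.2 (adjusted p = 0.0262) for day 14 minus day 7 and 0.97 ± 0.21 (adjusted p = 0.011, 0.67 without the 5 arrays) for day 42 minus day 14. Il1rn, the IL-1 receptor antagonist, did not pass, at -0.07 ± 0.32 (adjusted p = 0.901, 0.13 without the 5 arrays). Il1f9, now called Il36g, stood well above background on 1 of 5 day 14 arrays and 0 of 5 day 7 arrays. Where a probe was well above background on no array of an age, the fold is a lower bound, taken on each of those arrays against the lowest signal still well above background or the probe's own, whichever was higher. An adjusted p given beside a bound belongs to the measured difference in limma and does not test the bound. For Il1f9 the measured difference between day 14 and day 7 was 1.71 (adjusted p = 0.0207 in limma). With only 1 of 5 day 14 arrays well above background, the fold has no lower bound. The gene reached the 4 arrays needed for the test only with those of day 42, where 3 of 4 were above background. This call was lost without replicate 3 of day 14, the single array on which it was well above background there.

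Receptors of the IL-1 family lie next to each other on 1 chromosome, in the order Il1r2, Il1r1, Il1rl2, Il1rl1, Il18r1 and Il18rap, and 4 of these 6 were higher at day 42 than at day 1 (13% of all genes). Il1r2, a decoy that binds IL-1 without signalling, read -3.44, -2.99, -2.98 and -2.15 at day 42 and -4.67, -4.87, -3.98, -3.75 and -3.28 at day 1. It differed by 1.22 ± 0.3 (adjusted p = 0.00373, 1.37 without the 5 arrays), with replicate 5 of day 1 among the day 42 values. Its course dipped first, with means of -4.11, -4.35, -5.19, -4.08 and -2.89 over the ages, so that day 14 minus day 7, at 1.11 ± 0.29 (adjusted p = 0.011), and day 42 minus day 14, at 1.19 ± 0.3 (adjusted p = 0.0266, 0.95 without the 5 arrays), both passed. Il1r1, the signalling IL-1 receptor, read 1.28, 1.27, 1.08 and 0.38 at day 42 and 0.47, 0.5, 0.65, -1.1 and 0.1 at day 1 and was higher by 0.88 ± 0.28 (adjusted p = 0.0202, 0.67 without the 5 arrays). This call was lost without any 1 of replicates 1, 2 and 3 of day 42. Il1rap, the accessory chain of the IL-1 and IL-33 receptors, which lies elsewhere, was higher by 1.67 ± 0.49 (adjusted p = 0.0128, 1.36 without the 5 arrays) on its brightest probe, which read -3.25, -3.16, -3.08 and -4.81 at day 42 and -4.83, -4.6, -4.14, -6.38 and -6.3 at day 1, with replicate 4 of day 42 inside the day 1 range. Its second probe gave 0.2.

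The IL-18 receptor chains were both higher at day 42. Il18r1, the binding chain, read 2.41, 2.59, 2.65 and 0.3 at day 42 and 1.24, 1.11, 1.42, -1.3 and -0.59 at day 1, overlapping, with a difference of 1.61 ± 0.53 (adjusted p = 0.0262, 1.29 without the 5 arrays) on 1 probe and 0.89 on the other. The 5 arrays set apart lie low for it in each age. The call was lost without replicates 4 or 5 of day 1 or replicates 1, 2 or 3 of day 42, and the difference ranged from 1.19 to 2.17 over the fits that left out 1 array. Il18rap, the accessory chain that completes the receptor, read -3.91, -3.55, -3.36 and -4.52 at day 42 and -5.53, -5.44, -5.95, -6.53 and -5.35 at day 1. These did not overlap, and it was higher by 1.92 ± 0.38 (adjusted p = 0.000473, 2.03 without the 5 arrays). Its probe was above background on 4 of 4 day 42 arrays but only 1 of 5 day 1 arrays, so the size of this difference is uncertain, and normexp background correction ended the call. Il18rap also reached the 4 arrays needed for the test only with those of days 14 and 42.

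Il1rl1, the IL-33 receptor ST2, did not pass between day 42 and day 1. It read -0.01, 0.53, 0.22 and -1.97 at day 42 and -0.87, -0.62, -0.62, -2.76 and -2.07 at day 1, with replicate 4 of day 42 below 3 of the day 1 arrays, and the difference was 1.08 ± 0.46 (adjusted p = 0.092, 0.95 without the 5 arrays). Its means were -1.39, -1.38, -1.18, -0.13 and -0.31 over the ages. At day 14 all 5 arrays, at -0.19, -0.14, 0, 0.22 and -0.55, lay above the day 7 arrays, at -1.05, -1.23, -0.97, -1.49 and -1.17, while the adjusted p was 0.139. Without replicate 4 of day 42 the difference from day 1 was 1.64 and passed, and without the 5 arrays set apart the values were 1.05 (adjusted p = 9.83e-05) for day 14 minus day 7 and 0.95 (adjusted p = 0.000848) for day 42 minus day 1. Its other probes were well above background on 1 and 0 arrays. The gene gives a membrane receptor and a soluble decoy form, and which of them the probe reads was not established. Il1rl2, the IL-36 receptor, had 0.19 ± 0.37 (adjusted p = 0.751, 0.13 without the 5 arrays).

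**Figure D5:**
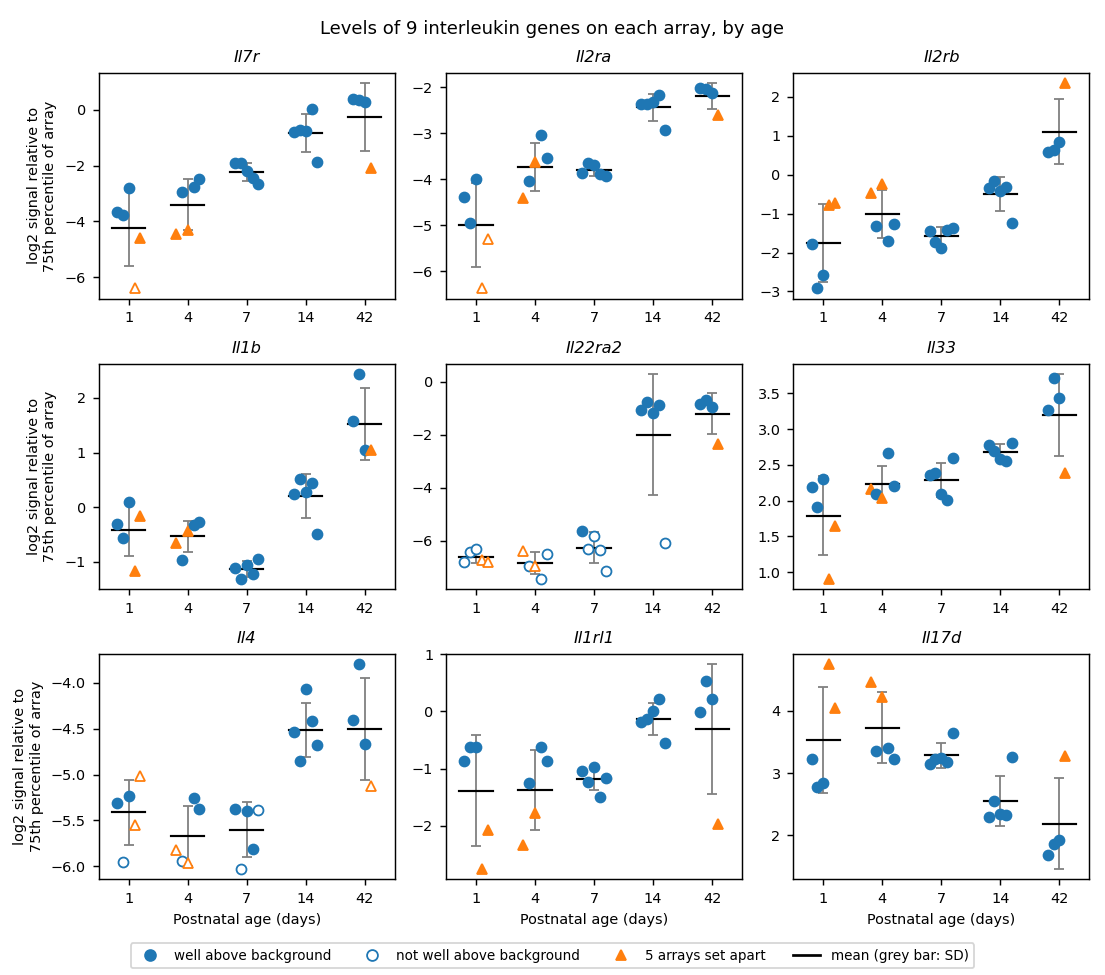
Level of 9 members on each array by postnatal age in days (log2 signal relative to the array's 75th percentile, with means as black bars and SD in grey); open points were not well above background and triangles are the 5 arrays set apart. Il22ra2 is above background on 4 of 5 day 14 arrays and all 4 of day 42, Il7r, Il2ra, Il2rb and Il1b are higher at day 42 than at day 1 without overlap, and Il17d runs the other way.

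In the IL-6 and gp130 family 4 of 7 tested members were higher at day 42 than at day 1 (13% of all genes), and the same 4 were higher at day 14 than at day 7 (6.04% of all genes). Il6st, which encodes gp130, the shared signalling chain, read 3.44, 3.39, 3.41 and 4.39 at day 42 and 2.59, 2.38, 2.14, 2.49 and 2.79 at day 1. It was higher by 1.18 ± 0.22 (adjusted p = 0.000243, 1.04 without the 5 arrays) without overlap, and between day 7 and day 14 by 0.76 ± 0.21 (adjusted p = 0.0157). Il6ra, the IL-6 binding chain, had means of 1.83, 1.78, 1.71, 2.81 and 2.99 over the ages. It read 3.13, 3.15, 3.01, 3.11 and 1.65 at day 14 and 1.82, 1.76, 1.56, 1.65 and 1.75 at day 7. Only replicate 5 of day 14 fell within the day 7 range. This difference was 1.1 ± 0.24 (adjusted p = 0.00358). Day 42 arrays read 2.89, 2.94, 2.8 and 3.31 and day 1 arrays 1.85, 1.32, 1.63, 1.87 and 2.51, without overlap, a difference of 1.15 ± 0.26 (adjusted p = 0.00165, 1.28 without the 5 arrays).

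Il27ra, a receptor chain for IL-27 on lymphocytes, read -0.75, -1.18, -1.29 and -0.18 at day 42 and -2.9, -2.66, -3.15, -1.75 and -2.33 at day 1, a difference of 1.71 ± 0.29 (adjusted p = 1e-04, 1.83 without the 5 arrays) without overlap. Il11, a gp130 cytokine of stromal cells, read -3.7, -3.01, -3.18 and -2.87 at day 42 and -4.5, -4.32, -4.5, -4.47 and -4.02 at day 1 and was higher by 1.17 ± 0.24 (adjusted p = 0.00062, 1.14 without the 5 arrays), also without overlap. Il6 itself was well above background on 2, 1, 3, 3 and 3 arrays at days 1, 4, 7, 14 and 42 and read -2.61, -1.83, -4.16 and -7.02 at day 42. Its 4 day 42 arrays spanned more than 5 log2 units, and the difference from day 1 was 1.68 ± 0.81 (adjusted p = 0.138, 2.08 without the 5 arrays). Il27 had -0.1 ± 0.32 (adjusted p = 0.855, 0.12 without the 5 arrays) and Il11ra1 0.39 ± 0.35 (adjusted p = 0.468, 0.59 without the 5 arrays), where the probe of Il11ra1 may also read a near-identical gene copy.

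The IL-12 and IL-23 family had 3 testable members, of which 2 were higher at day 42 than at day 1 (13% of all genes). Il12a, the p35 subunit of IL-12 and IL-35, stood well above background on 4 of 5 day 14 arrays, on 3 of 4 day 42 arrays and on no array of days 1, 4 and 7, so it entered the test only through the later ages. It was at least 1.44-fold higher at day 42 than at day 1 (adjusted p = 0.000162) and at least 1.04-fold higher at day 14 than at day 7 (adjusted p = 0.00435). Measured means were -4.87 at day 42 and -7.59 at day 1. Il12rb1, the chain shared by the IL-12 and IL-23 receptors, read -1.37, -1.44, -1.56 and -0.1 at day 42 and -3.14, -3.68, -2.89, -1.96 and -2.03 at day 1, apart from each other, and differed by 1.62 ± 0.33 (adjusted p = 0.000669, 1.78 without the 5 arrays) on its brightest probe and by 0.64 on the second. It was higher at day 42 than at day 14 by 1.23 ± 0.33 (adjusted p = 0.0391, 0.89 without the 5 arrays), a call that 10 of the 24 fits without 1 array lost. Il12rb2, the signal-bearing chain, had -0.07 ± 0.25 (adjusted p = 0.87, 0.08 without the 5 arrays).

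The single largest difference of all members was in the IL-10 family. Il22ra2 encodes a secreted receptor that binds IL-22 and blocks it. Its probe was well above background on 0 of 5 arrays at day 1, 0 of 5 at day 4, 1 of 5 at day 7, 4 of 5 at day 14 and 4 of 4 at day 42. It read -5.65, -6.33, -5.83, -6.36 and -7.16 at day 7, -1.05, -0.76, -1.19, -0.88 and -6.09 at day 14 and -0.82, -0.69, -0.95 and -2.35 at day 42. The day 14 arrays thus split, with 4 near the day 42 level and replicate 5 among the day 7 values. The step between day 7 and day 14 was 4.27 ± 0.68 (adjusted p = 0.000187), and without replicate 5 of day 14 it was 5.3. Since 4 of the 5 day 7 arrays were not above background, the size of this step is uncertain. The gene entered the test only through days 14 and 42. Measured means were -1.2 at day 42 and -6.61 at day 1, a difference of 5.41 (adjusted p = 5.23e-06 in limma). Since no day 1 array was above background, the fold is a bound, at least 18.3-fold higher at day 42, which that p does not test. Il22, its ligand, was measured on all 24 arrays and had -0.35 ± 0.32 (adjusted p = 0.477, -0.23 without the 5 arrays), and Il22ra1, the signalling receptor, was well above background on only 4 of 24 arrays. Il24 and Il20rb, a cytokine and a receptor chain of the same family, differed by 0.18 ± 0.24 (adjusted p = 0.622, 0.19 without the 5 arrays) and -0.34 ± 0.14 (adjusted p = 0.0701, -0.32 without the 5 arrays).

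Between day 7 and day 14 the binding chain of the IL-10 receptor rose, while the dim probe of IL-10 itself read lower. Il10ra, the binding chain on leukocytes, read 1.68, 1.48, 1.05 and 2.18 at day 42 and -0.19, -0.63, -0.31, 0.9 and 0.6 at day 1, a difference of 1.52 ± 0.31 (adjusted p = 0.00058, 1.78 without the 5 arrays) without overlap. Between day 7 and day 14 it was higher by 1.16 ± 0.29 (adjusted p = 0.00889), with replicate 5 of day 14 inside the day 7 range. Il10rb, the shared second chain, had 0.45 ± 0.2 (adjusted p = 0.11, 0.48 without the 5 arrays). Il10, the anti-inflammatory cytokine itself, was the only member lower at day 14 than at day 7 in the test with all 24 arrays. It read -7.31, -6.98, -7.31, -7.15 and -6.82 at day 14 and -5.22, -6.25, -5.77, -5.14 and -5.42 at day 7, without overlap, and was well above background on 0 and 2 of these arrays. The measured difference was -1.55 (adjusted p = 0.00161 in limma). With 3 of the 5 day 7 readings themselves not above background, the size is uncertain and the fold has no lower bound. With normexp background correction Il10 did not pass.

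Of 8 type 2 and beta common cytokines and receptors tested, other than Il4 and Il4ra, 1 passed between day 42 and day 1. Their median difference was 0.18. In that comparison 26.7% of all genes passed in either direction, and 13% were higher. The member that passed was Il31ra, the IL-31 receptor, which was higher. It stood well above background on 3 of 4 day 42 arrays, on no day 1 array and on 6 arrays in all. It thus reached the 4 arrays needed for the test only with those of day 42. Measured readings differed by 1.21 (adjusted p = 0.00446 in limma), and as a bound it was at least 1.33-fold higher. With the mean of its 2 probes, of which the second gave 0.73, the call was lost. Il13 was well above background on 4 arrays in all and Il5 on 7, each at several ages, with differences of -0.47 ± 0.97 (adjusted p = 0.763, 0.22 without the 5 arrays) and 0.41 ± 0.81 (adjusted p = 0.755, 1.4 without the 5 arrays). Il5ra, the alpha chain of the IL-5 receptor, read -1.22, -2.6, -2.92 and -5.58 at day 42 and -4.11, -3.76, -3.66, -6.5 and -7 at day 1. Its values spread over more than 4 log2 units within day 42, and the difference was 1.93 ± 0.76 (adjusted p = 0.065, 1.6 without the 5 arrays), against 1.6 (adjusted p = 0.00182) without the 5 arrays set apart. Il13ra1 had 0.98 ± 0.77 (adjusted p = 0.395, 0.55 without the 5 arrays), Il13ra2 -0.41 ± 0.32 (adjusted p = 0.39, -0.22 without the 5 arrays), Il3 -0.06 ± 0.33 (adjusted p = 0.915, 0.1 without the 5 arrays) and Il3ra -0.07 ± 0.35 (adjusted p = 0.901, 0.06 without the 5 arrays).

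In the IL-17 family, 3 of 7 tested members, all receptor chains, were higher at day 42 than at day 1 (13% of all genes) and 1 ligand was lower (13.7%). Il17d, an IL-17 homologue, was the only member lower at day 42 than at day 1 with all 24 arrays. It read 1.69, 1.86, 1.93 and 3.28 at day 42 and 3.22, 2.77, 2.84, 4.75 and 4.05 at day 1, and replicate 4 of day 42 lay inside the day 1 range. The difference was -1.34 ± 0.38 (adjusted p = 0.0106, -1.12 without the 5 arrays), or 2.53-fold lower, and its second probe gave -1.35. Within slides it was -2.3, -1.52 and 0.44, the last on the slide that holds replicate 4 of day 42. When only the arrays of these 2 ages were fitted it did not pass.

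The promoter window of Il17d, the member that fell, is on the plus strand at chr14:57524579-57524878 (RefSeq, GRCm38.p6), with its STAT motif in capitals, the same motif form as in Il7r, which rose.
Il17d: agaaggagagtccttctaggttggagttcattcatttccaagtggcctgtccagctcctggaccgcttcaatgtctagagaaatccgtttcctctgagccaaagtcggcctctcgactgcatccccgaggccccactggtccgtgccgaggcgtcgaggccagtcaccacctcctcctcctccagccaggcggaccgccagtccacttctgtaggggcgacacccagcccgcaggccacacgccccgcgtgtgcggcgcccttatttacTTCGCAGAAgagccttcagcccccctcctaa

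Il17ra, the common receptor chain of IL-17 family ligands, read 0.32, 0.29, 0.01 and 1.15 at day 42 and -0.7, -1.09, -0.89, 0.39 and 0.16 at day 1 and was higher by 0.87 ± 0.3 (adjusted p = 0.0357, 1.1 without the 5 arrays), a call lost in 6 of the 24 fits without 1 array. Il17rb, the IL-25 receptor chain, read -3.97, -3.63, -3.82 and -3.88 at day 42 and -5.35, -5.46, -5.08, -5.28 and -4.98 at day 1, without overlap, and was higher by 1.4 ± 0.43 (adjusted p = 0.0178, 1.49 without the 5 arrays). It did not pass without replicate 2 of day 42, at 1.34, and its dim second probe gave -0.22. Il17re, the IL-17C receptor chain, was higher by 0.73 ± 0.27 (adjusted p = 0.0434, 0.89 without the 5 arrays), which 12 of those 24 fits lost. Il17rc and Il17rd had differences of 0.05 ± 0.34 (adjusted p = 0.936, 0.27 without the 5 arrays) and 0.29 ± 0.18 (adjusted p = 0.284, 0.17 without the 5 arrays), and Il17b, well above background on 4 arrays, one of -0.64 ± 0.78 (adjusted p = 0.599, 0.3 without the 5 arrays).

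The remaining members fall outside these families. Il16, which encodes a T-cell chemoattractant precursor, read 1.59, 1.33, 1.13 and 2.51 at day 42 and 0.12, -0.33, -0.21, 0.98 and 0.69 at day 1 and was higher by 1.39 ± 0.3 (adjusted p = 0.00132, 1.49 without the 5 arrays) without overlap. Il4i1, an amino acid oxidase first found as an IL-4 induced gene and no cytokine, read 3.24, 2.11, 1.81 and 3.24 at day 42 and 0, -0.76, -0.07, 1.41 and 1.02 at day 1, a difference of 2.28 ± 0.37 (adjusted p = 6.29e-05, 2.66 without the 5 arrays) without overlap. Both had also passed between day 7 and day 14, at 0.93 ± 0.29 (adjusted p = 0.0365) and 1.12 ± 0.35 (adjusted p = 0.0413), and each of these 2 calls was lost in 8 of the 24 fits without 1 array. Il34, a ligand of the macrophage CSF-1 receptor, missed the threshold with 0.96 ± 0.36 (adjusted p = 0.0552, 1.22 without the 5 arrays) and passed without the 5 arrays set apart, with 1.22 (adjusted p = 2e-04).

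Of the 33 members that passed between day 42 and day 1, 15 passed under every alternative processing in which they were tested and without any 1 array. These were Il1b, Il18bp and Il33 of the IL-1 family, Il7r, Il2ra, Il2rb and Il21r of the common gamma chain receptors, Il6ra, Il6st and Il27ra, Il12rb1, Il10ra and Il22ra2, and Il16 and Il4i1. Between day 14 and day 7 it was 3 of 17, namely Il1b, Il2ra and Il22ra2, and between day 42 and day 14 it was none of the 5. Normexp background correction ended the day 42 minus day 1 calls of Il4, Il7, Il11, Il12a, Il17rb, Il18rap, Il1a, Il1r2, Il1rap and Il31ra. It ended the day 14 minus day 7 calls of Il4, Il10, Il11, Il12a, Il16, Il1f9 and Il1r2. Median scaling ended those of Il10ra, Il11, Il16, Il18bp, Il1r2, Il21r, Il27ra, Il4i1, Il6ra and Il6st between day 14 and day 7. With slide as a block, all 33 and all 17 passed again. Within each of the 3 slides the 17 kept their direction, and 26 of the 33 did. The other 7, Il17d, Il18, Il18r1, Il1a, Il1r1, Il1rap and Il7, turned on the slide that holds replicate 4 of day 42.

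Signalling partners outside the Il symbols were read from a list. These 43 genes of shared receptor chains, related cytokines, kinases, STAT factors, inhibitors and IL-1 or IL-17 signalling had 13 higher and 2 lower at day 42 than at day 1, 2 higher and 0 lower against day 14 in limma, and 5 higher and 0 lower between day 7 and day 14. Over all genes tested the shares were 13% and 13.7%, 2.18% and 1.51%, and 6.04% and 5.54%, in the same 3 comparisons. Without the 5 arrays set apart the list had 25 higher and 3 lower, 9 higher and 4 lower, and 21 higher and 5 lower. The shares over all genes in that fit were 22.6% and 24.1%, 6.73% and 6.82%, and 20.5% and 18.1%. Its median day 42 minus day 1 difference was 0.51, against -0.06 over all genes. Stat4, which transmits IL-12 signals, was higher by 2.56 ± 0.29 (adjusted p = 5.64e-07, 2.35 without the 5 arrays), Casp1, which cleaves the precursors of IL-1 beta and IL-18, by 2.3 ± 0.49 (adjusted p = 0.00101, 2.04 without the 5 arrays), and Osmr, a gp130 partner, by 1.98 ± 0.24 (adjusted p = 1.3e-06, 1.69 without the 5 arrays). Socs2, a feedback inhibitor, differed by -0.96 ± 0.22 (adjusted p = 0.00154, -1.03 without the 5 arrays). Of 11 kinases and STAT factors 5 passed, all upward.

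The promoters of the members were searched for 5 motifs on both strands, in 300-base RefSeq windows (GRCm38.p6) that 64 of the 81 members have, 79 windows in all. The STAT motif TTCNNNGAA stood in 13.9% of the members' windows and in 8.3% of all 32851 windows. The AP-1 motif TGANTCA stood in 17.7% of the members' windows and 7.81% of all, the GATA motif AGATAA in 16.5% and 11.2%, the TATA box TATAAA in 17.7% and 13.6%, and the NF-kappaB motif in 10.1% and 8.46%. These shares are descriptions of short windows, and no test was made.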

How the data were processed

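Total RNA of 24 whole mouse lung samples was measured on 1-colour Agilent arrays. The deposited spot files hold processed signal as intensity, background-subtracted and detrended by Agilent Feature Extraction (the file headers give version 10.7.3.1, the submitters' processing notes 10.7.1.1), and the flags per spot that the scanner software set. The authors' deposited value table, used as an alternative, holds log2 values whose normalization is not given in the sources used here. Intensities were scaled to each array's 75th percentile and taken as log2, spots of a probe were averaged, and each gene was read from the probe with the highest mean over all arrays. Probe accessions were named through RefSeq.

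Genes well above background on at least 4 arrays were tested with limma 3.58.1 in R 4.3.3, 1 mean per age over all 24 arrays, with Benjamini-Hochberg adjustment, two-sided. The number of arrays limits the precision. The code was tested on simulated data. Alternatives were background correction, scaling, filters, probe averaging, slide and replicate number as blocks, array weights, the compared ages alone and leaving out arrays. The background alternative was normexp with an offset of 50, and it used median signals, because the files lack mean ones. Leaving out the 5 arrays set apart, with or without replicate 5 of day 14, was added after seeing the data.

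The members and the pathway and marker lists were chosen with earlier results of these data known. Full values are given for members past the test in a comparison with both ages measured, up to 30 by size of difference, and for Il4, Il33, Il7r and Il1rl1 in any case. Members with no array above background at 1 age are given as bounds. Il1f9 and Il10 between day 14 and day 7 are exceptions, since most arrays of the brighter age were not above background either. From the pathway list the 3 largest differences each way were to be named, of which some are not reported here. Other members with values of interest were named after these were seen.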

Additional observations from a re-analysis of the deposited data

Results flagged for a closer look

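In 180 sets of 4 or 5 arrays of 1 age, 31 had a highest or lowest array far from the others by Dixon's criterion, and chance alone marks about 1 in 20 such sets. Of these, 25 fell on the 5 arrays set apart or on replicate 5 of day 14.

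Replicate 5 of day 14 was the lowest array of its age for Il10ra (-0.27, next 0.74), Il12a (-7.54, next -5.26), Il12rb1 (-2.79), Il16 (-0.15), Il1b (-0.49), Il21r (-2.84), Il22ra2 (-6.09, next -1.19), Il27ra (-2.61), Il2ra (-2.93), Il2rb (-1.25), Il6ra (1.65, next 3.01), Il6st (2.87) and Il7 (-5.51). It was the highest for Il17d, at 3.26. In each of these 14 genes the array thus lay on the side of the younger ages.

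Replicate 4 of day 42 was the lowest of its age for Il18 (0.17), Il18r1 (0.3, next 2.41), Il1rap (-4.81), Il22ra2 (-2.35), Il7 (-6.24) and Il7r (-2.09, next 0.26). The same array was the highest for Il12rb1 (-0.1), Il17d (3.28), Il2rb (2.34), Il4ra (2.52) and Il6st (4.39).

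Single arrays of other ages stood apart in fewer genes. Il1f9 had 1 high array at day 1 (replicate 1, -4.49) and 1 at day 14 (replicate 3, -3.64). Il17rb was high on replicate 2 of day 7 (-2.88), Il17re on replicate 4 of day 7 (1.5), Il17d on replicate 5 of day 7 (3.64) and Il33 on replicate 4 of day 4 (2.66).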

How the results depend on the processing

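Of 56 named differences, those that kept their call or lack of one numbered 37 with normexp background correction (18 lost their call), 42 with median scaling, 53 with quantile normalization, 56 in the authors' deposited table, 55 with slide as a block and 38 with the compared ages alone. The sign turned for 1 of them, Il1a between day 42 and day 1, at -0.02 with normexp, which is close to no difference. Median scaling moved the median of all genes to -0.15 for day 14 minus day 7 and 0.28 for day 42 minus day 14, where the members' medians were 0.49 and 0.6.

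The count for day 14 minus day 7 (17) was 11 with normexp, 7 with median scaling, 27 in the authors' table, 9 over genes well above background on all arrays, 41 with array weights, 36 with the compared ages alone, 39 without the 5 arrays set apart and 37 without these and replicate 5 of day 14. Leaving out 1 array gave 11 to 20, with 11 without replicate 3 of day 14. For day 42 minus day 14 (5) it was 12 in the authors' table, 31 with array weights, 0 in limma with the compared ages alone (13 had an unadjusted p under 0.05 over all arrays), and 18 without the 5 or the 6 arrays. Leaving out 1 array gave 2 to 9. For day 42 minus day 1 (33) it was 20 over genes above background on all arrays and 20 with the compared ages alone, and leaving out 1 array gave 27 to 36. The count over any age (37) was 22 over genes above background on all arrays and 33 to 41 without 1 array. Array weights gave 3 members for day 4 minus day 1 and 11 for day 7 minus day 4, and leaving out the 6 arrays gave 1 for day 4 minus day 1. The counts with array weights and with the compared ages alone are given without shares over all genes. They do not show whether members passed more often than other genes. Without the 5 arrays set apart, 38.5% of all genes passed for day 14 minus day 7, against 11.6% with all 24. The causes were not tested, except that the stricter filter leaves 37 members to test.

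Replicate numbers did not pair the samples: over 46 pairs with the same number, deviations correlated at -0.85 to 0.88 (median -0.01), and 4 arrays correlated best with their own number. With the replicate number as a block the counts were 16, 3 and 30 for day 14 minus day 7, day 42 minus day 14 and day 42 minus day 1. Dim signal limits the ligands most, since 15 of 38 were above background on fewer than 4 arrays.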

Other observations

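Several members stand in chromosomal neighbourhoods with at most 1 protein-coding gene between them, which the selection by name did not use. Il4 and Il13, T helper type 2 cytokines, and Il5 form 1 such group, with day 42 minus day 1 differences of 0.91, -0.47 and 0.41, of which Il4 alone passed. Il2ra lies beside Il15ra (2.8 and -0.02 on their brightest probes), Il4ra beside Il21r (1.41 and 2.14), and Il6st beside Il31ra (1.18 and 1.21). These are values side by side, and no test of neighbourhood was made.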
